A study of Rattus norvegicus with 22 samples.

Results

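The expression of 10 genes was followed in the nucleus accumbens (NAc) of EtOH-exposed rats: the neuropeptide precursor genes Npy, Sst, Cck, Tac1, Cartpt, Nts and Vip and the NPY receptor genes Npy1r, Npy2r and Npy5r. They were taken by exact gene symbol from the 17310 genes listed in the count files. All 10 symbols were listed, and 9 had at least 1 read in at least 1 rat.

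The data were polyA+ RNA-seq libraries from the dissected NAc core and shell of 22 adult male Wistar rats, 1 library per rat, in 2 separately prepared experiments. In experiment 1, 5 rats chose between 6% EtOH and water during 8 weeks, and 5 control rats had water only. In experiment 2, all 12 rats drank 6% EtOH, for 4 weeks before and 2 weeks after a gavage period of 3 weeks. During that period 6 of them received EtOH by gavage (2.5 g/kg of a 30% solution, 2 times daily) and the other 6 received water by gavage, so the control group of experiment 2 was also EtOH-drinking and the comparison concerns the added dose. The design holds no water-only group for experiment 2, and each experiment was analysed on its own.

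Neuropeptides are cut from larger precursor proteins, stored in dense core vesicles and released together with fast transmitters such as GABA. In the NAc, most neurons are GABAergic projection neurons. Those that carry the dopamine D1 receptor make substance P from Tac1, a small class of interneurons makes somatostatin and neuropeptide Y, and CART and neurotensin are made by subsets of projection neurons. Cholecystokinin is abundant in cortical excitatory neurons, and VIP marks a class of cortical interneurons. Neuropeptide Y acts through the Y1, Y2 and Y5 receptors, which couple to inhibitory G proteins, and the Y2 receptor often sits on the nerve terminals that release the peptide. The NPY system is among the peptide systems long studied in alcohol drinking.

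Several neuropeptide genes are known targets of the transcription factor CREB, which binds the cAMP response element, TGACGTCA, and its shorter form TGACG. Promoter windows are shown here for this reason. They come from a RefSeq table of the GRCr8 rat assembly, which is not the rn6 assembly of the count files, and cover 250 bases before to 50 bases after an annotated transcription start. An entry was found for 9 of the 10 genes. On either strand, TGACG was present for 6 of the 9 genes and in 21.2% of all 33469 windows of the table. A gene was counted once if any window under its symbol held the element, whereas the percentages are shares of single windows. The counts and the percentages are therefore not in the same unit. The full element was present for 2 of the 9 genes, Sst and Cartpt, and in 1.83% of all windows. Each full element also counts as a TGACG. The lines below give 30 bases of each of the 6 promoters, read 5′ to 3′ on the strand of the gene, with the element in capitals (CGTCA is TGACG on the opposite strand).
Npy1r: cctcgtggggtgcCGTCAcatgatcctgga
Sst: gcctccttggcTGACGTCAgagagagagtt
Tac1: ttccctaaaattgCGTCAtttcgaacccaa
Cartpt: ccggcgggcatTGACGTCAaacggcagcgg
Nts: aattagggaagatCGTCActttcaatcaag
Vip: gggatcaccactgTGACGtctttcgaggag
The stretch of Npy1r lies at chr16:27813509-27813538 on the minus strand, with its element beginning 138 bases before the start. That of Sst lies at chr11:90461537-90461566 on the plus strand, with the element beginning at base 3 of the annotated transcript. Tac1 is shown at chr4:36645364-36645393 on the plus strand, 206 bases before the start, and Cartpt at chr2:32991359-32991388 on the minus strand, 142 bases before it. The stretch of Nts is chr7:39461043-39461072 on the minus strand, 171 bases before the start, and that of Vip is chr1:44470370-44470399 on the plus strand, 97 bases before it. These are matches of letters in a fixed window, and no binding was measured in these rats.

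Between 2962291 and 5247386 reads per rat were counted on genes in experiment 1, and between 6713617 and 8765472 in experiment 2. Levels are given as CPM, the reads of a gene relative to the reads on all genes of the library after TMM scaling within the experiment. They are not divided by transcript length, so they were compared between rats and not between genes. The labelled tissue showed its markers, since Ppp1r1b (DARPP-32), a protein of striatal projection neurons, was at 694 to 1464 CPM in experiment 1 and 839 to 2288 CPM in experiment 2. Of the 8 marker lists used, that of cortical excitatory neurons varied most between libraries. The 6 listed genes of that marker list, Slc17a7 and Neurod6 among them, summed to 103 to 748 CPM in experiment 1. In experiment 2, 4 libraries stood apart, EtOH gavage rats 1 and 2 and water gavage rats 1 and 5, with sums of 3.88 to 41.9 CPM against 74.4 to 582 CPM in the other 8. In these 4 libraries Slc17a7, the vesicular glutamate transporter of cortical neurons, was as low as 0.138 CPM. All 4 sat at one end of the first principal component (-86.4 to -17.8 against 4 to 49.8), which held 74.0% of the variance. Reads that the counting program HTSeq assigned to no feature were 52.8% to 58.0% in the 4 libraries against 46.1% to 51.7% in the others. The percentage is a share of these reads plus those counted on genes. They are called reads outside genes here, but the HTSeq options were not given, so where these reads lay is not known. The 4 were chosen after the values were seen, as the lowest for the list, and the step at this choice was small: EtOH gavage rat 2 (41.9 CPM) and EtOH gavage rat 4 (74.4 CPM) lay next to each other, whereas larger steps separated 8.58 from 41.9 CPM and 74.4 from 222 CPM. The fold changes of the counted genes in experiment 2 are given over all 12 rats and also without the 4 libraries, 2 of each group, while the marker sums are given over all 12 only.

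Npy itself, the precursor of neuropeptide Y, was listed at 0 in 22 of 22 libraries. A count of 0 allows up to 3 counts, or 0.332 to 1.02 CPM depending on the library, and this limit covers counting error only. The same was true of 2853 of the 17310 listed genes (16.5%), among them Pcsk1n, a granin-like precursor of neuroendocrine cells, and Col1a2, a fibrillar collagen. What set these zeros was not tested, a 0 here may not measure the expression of the gene at all, and no comparison was made for Npy.

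None of the 9 counted genes passed the test in either experiment. In experiment 1, 0 of the 6 genes above the filter on mean counts reached an FDR below 0.05 with the quasi-likelihood F-test of edgeR, and neither did any of the 3 below it (Npy2r, Npy5r and Vip) in a fit without the filter. Across all 8655 genes tested the share called was 0%, and it was also 0% of 14024 genes without the filter. An unadjusted P-value under 0.05 was obtained for 2 of the 9, Npy1r and Npy5r, against 5.58% of all genes tested. Npy5r lay below the filter, so that 1 of the 6 genes above it stands against the 5.58%. The count among the 9 was 0 without EtOH rat 5, 1 without EtOH rat 4, water rat 1 or water rat 4, and 4 without EtOH rat 1 or water rat 5. DESeq2 also called 0 genes and gave 632 genes with an unadjusted P-value under 0.05, against 483 in edgeR. The log2 fold change was below 0 for 7 of the 9 genes, with a median of -0.20, against a median of -0.0012 over all genes tested. The EtOH and water groups did not separate completely for any of the 9 genes, whereas 0.832% of all genes tested had groups without overlap.

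In experiment 2, 8 of the 9 counted genes were above the filter, and 0 of them had an FDR under 0.05. Npy2r, in the fit without the filter, did not either. The share called was again 0% of 8655 genes. Here 0 of the 9 genes had an unadjusted P-value under 0.05, against 1.33% of all genes (115 genes in edgeR and 315 in DESeq2, which also called 0). Fold changes were above 0 for 6 of the 9 genes and below 0 for 3, with a median log2 fold change of 0.09, against 0.00088 over all genes tested. None of the 9 had groups without overlap, and 0.0116% of all genes did. Without the 4 libraries that stood apart, 0 genes were called and the FDRs of the 9 genes lay between 0.461 and 0.794.

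**Figure D1:**
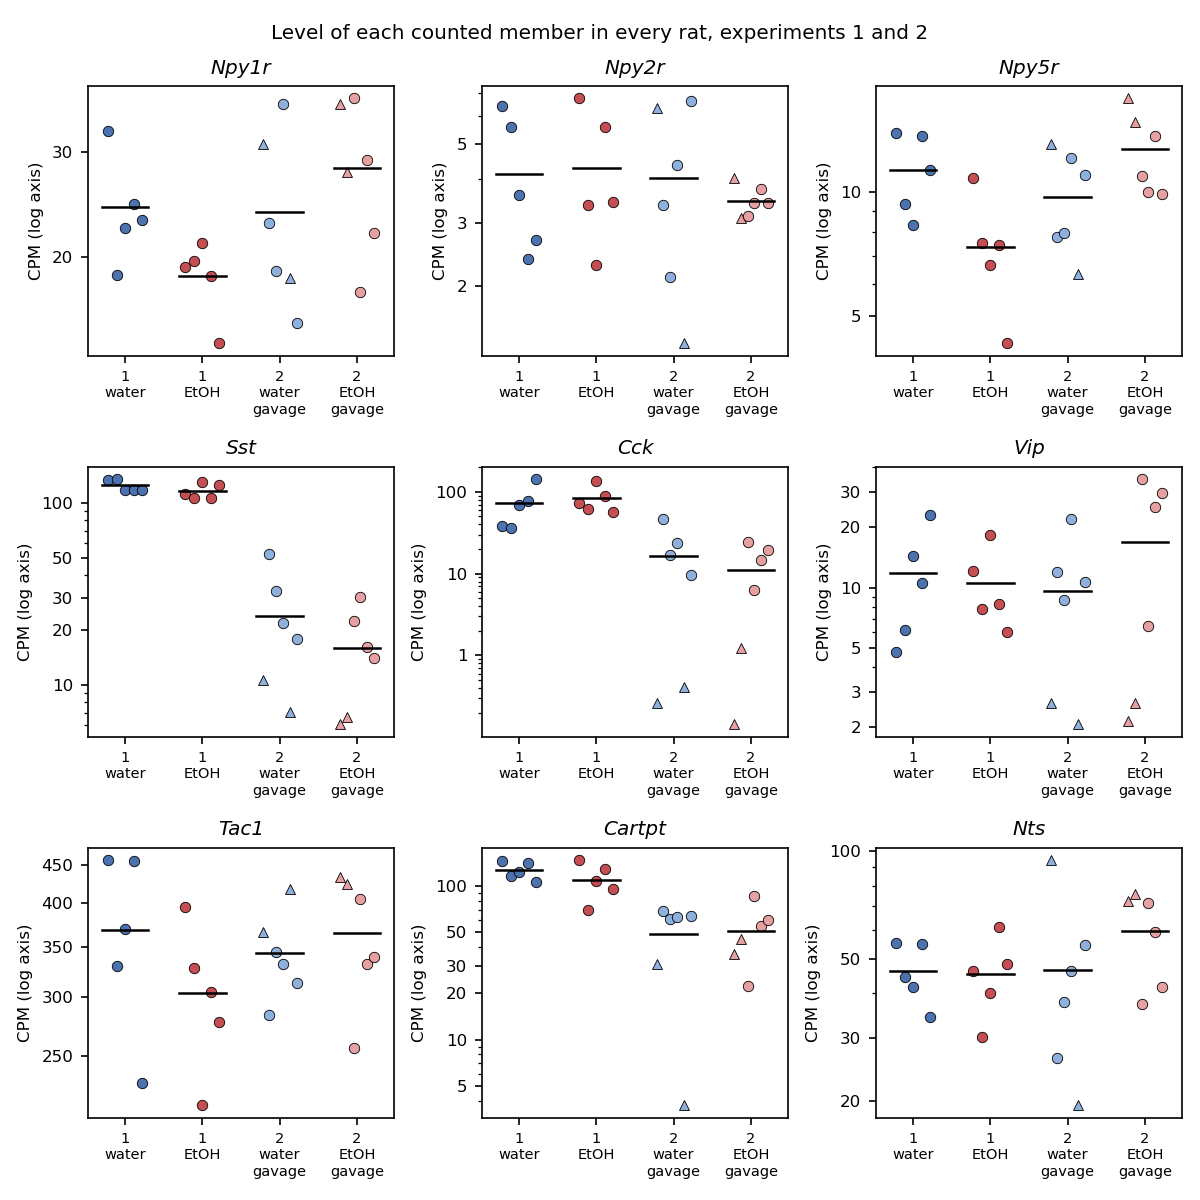
CPM of each of the 9 counted genes in every rat on log axes, with 1 panel per gene, points for rats, horizontal lines for group means, and triangles for the 4 libraries of experiment 2 lowest for cortical neuron genes. The groups overlap in every panel, and the triangles lie lowest for Sst, Cck and Vip in experiment 2, where Cck spans 0.144 to 47.1 CPM.

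Among the receptors, Npy1r and Npy5r had the lowest P-values of the 9 genes in experiment 1. Npy1r encodes the Y1 receptor, which lies mostly on the cell bodies and dendrites of the neurons that receive the peptide. It was at 32.5, 18.6, 22.3, 24.5 and 23.0 CPM in the 5 water rats and at 19.2, 19.7, 21.1, 18.6 and 14.3 CPM in the 5 EtOH rats. The groups overlapped, with 2 EtOH rats below every water rat and none above them. The mean was 24.2 ± 5.10 CPM (SD, n = 5) in water rats and 18.6 ± 2.56 CPM (SD, n = 5) in EtOH rats, with an edgeR log2 fold change of -0.36 ± 0.15 (SE, 95% confidence interval -0.69 to -0.03), and the FDR was 0.866 (unadjusted P-value 0.0338).

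Npy5r encodes the Y5 receptor, best known for a part in feeding, and lay below the filter in experiment 1 with 15 to 59 reads per rat. It was at 13.9, 9.32, 8.33, 13.6 and 11.3 CPM in water rats and at 10.8, 7.52, 6.66, 7.45 and 4.30 CPM in EtOH rats. All but the first EtOH rat were below every water rat, and the first lay within the water range. The mean was 11.3 ± 2.49 CPM (SD, n = 5) against 7.34 ± 2.33 CPM (SD, n = 5), with a log2 fold change of -0.61 ± 0.24 (SE, 95% confidence interval -1.11 to -0.12) in the edgeR fit without the filter, with an FDR of 0.804 (unadjusted P-value 0.0172).

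After EtOH gavage in experiment 2 the point estimates of both receptors were above 0. Npy1r ranged from 15.5 to 36.1 CPM with a median of 20.9 in water gavage rats and from 17.5 to 36.8 CPM with a median of 28.4 in EtOH gavage rats. For Npy1r the log2 fold change was 0.24 ± 0.24 (SE, edgeR FDR 0.677). Npy5r ranged from 6.34 to 13.1 CPM with a median of 9.45 after water gavage and from 9.87 to 16.8 CPM with a median of 12.3 after EtOH gavage. For Npy5r, 3 of 6 EtOH gavage rats were above every water gavage rat, and the log2 fold change was 0.38 ± 0.23 (SE, edgeR FDR 0.675). Without the 4 libraries that stood apart it was 0.20 for Npy1r and 0.21 for Npy5r.

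The fold changes of Npy1r and Npy5r thus pointed down in experiment 1 and up in experiment 2, and kept these directions under every alternative that was run. The difference between the experiments was not tested, because their controls, library kits and sequencers differ. In RefSeq (GRCr8) both genes are neighbours on chromosome 16, transcribed away from each other. Across the 10 rats of experiment 1, after removal of the group means, their log2 CPM had a Pearson's r of 0.69 (permutation p = 0.0362, 0.435 after adjustment over all pairs of the 9 genes) and a Spearman's rho of 0.73 (permutation p = 0.0266, adjusted 0.346), and r was 0.47 without the 2 rats farthest from the median of Npy1r. In the 8 rats of experiment 2 outside the low libraries r was 0.46 (permutation p = 0.326, adjusted 0.515) and rho 0.50 (permutation p = 0.255, adjusted 0.691), and r was 0.15 without the 2 farthest rats. The relation did not pass the adjustment in either experiment.

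Npy2r, the Y2 receptor gene, was the least covered of the 9, with 7 to 21 reads per rat in experiment 1 and 10 to 60 in experiment 2. It ranged from 2.39 to 6.42 CPM in water rats and from 2.30 to 6.74 CPM in EtOH rats of experiment 1, nearly the same span, with a log2 fold change of 0.05 ± 0.35 (SE). In experiment 2 it ranged from 1.38 to 6.64 CPM after water gavage and from 3.10 to 4.03 CPM after EtOH gavage, so that the EtOH gavage rats lay inside the range of the others. The fold change on the log2 scale was -0.19 ± 0.36 (SE), and -0.24 ± 0.36 (SE) without the 4 libraries. Over all 12 rats a change of up to 1.5-fold upward or to 0.511-fold downward lies within the 95% confidence interval.

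**Figure D2:**
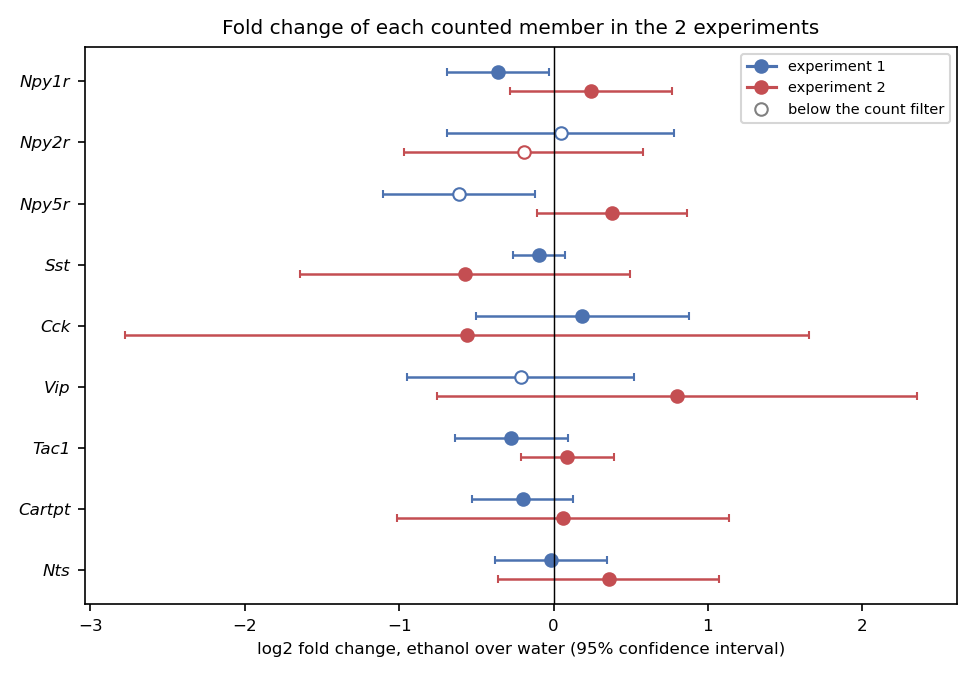
Log2 fold change of EtOH over water (experiment 1) and of EtOH gavage over water gavage (experiment 2) from edgeR, with bars for the 95% confidence interval and open points for genes below the count filter. The intervals of Npy1r and Npy5r in experiment 1 lie below 0 (unadjusted), and that of Cck in experiment 2 runs from -2.78 to 1.65.

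Sst, the somatostatin precursor of low-threshold-spiking interneurons, was the most even of the genes in experiment 1. It was at 134, 135, 117, 118 and 118 CPM in water rats and at 112, 107, 131, 107 and 126 CPM in EtOH rats. The groups overlapped, with 3 EtOH rats below every water rat. The log2 fold change was -0.09 ± 0.08 (SE, edgeR FDR 0.932), and the 95% confidence interval of the fold ran from 0.834 to 1.05.

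In experiment 2 the level of Sst was lower and uneven. It ranged from 7.03 to 52.2 CPM with a median of 19.8 after water gavage and from 6.04 to 30.2 CPM with a median of 15.1 after EtOH gavage. The 4 libraries with low cortical lists had 6.04 to 10.6 CPM and the other 8 had 14.0 to 52.2 CPM. EtOH gavage rats differed from water gavage rats by -0.58 ± 0.50 (SE) on the log2 scale (edgeR FDR 0.675), and -0.57 without the 4 libraries (edgeR FDR 0.481). The lower level in experiment 2 than in experiment 1 was seen in every rat, but treatment, library kit, strand setting and sequencer differ between the experiments and cannot be told apart. With the share of reads outside genes as a covariate the fold change of Sst in experiment 2 turned to 0.27.

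Cck, the cholecystokinin precursor, was among the most variable genes of the transcriptome in both experiments. Its within-group SD of log2 CPM was 0.68 in experiment 1 and 2.57 in experiment 2, at the 99.5th and 99.95th percentile of all genes tested, where the median SD was 0.162 and 0.339. In experiment 1 it was at 38.2, 35.7, 69.6, 76.7 and 143 CPM in water rats and at 73.8, 61.2, 137, 88.3 and 56.8 CPM in EtOH rats. All EtOH rats lay inside the range of the water rats. The log2 fold change was 0.18 ± 0.32 (SE), with an edgeR FDR of 0.983, and it was -0.08 without EtOH rat 3.

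In experiment 2, Cck had 1 to 8 reads (0.144 to 1.24 CPM) in the 4 libraries low for cortical genes and 44 to 364 reads (6.26 to 47.1 CPM) in the other 8. It ranged from 0.264 to 47.1 CPM with a median of 13.2 after water gavage and from 0.144 to 24.3 CPM with a median of 10.5 after EtOH gavage. The highest level was 328 times the lowest, and the 4 lowest rats were 2 of each group. Between the groups, log2 Cck differed by -0.56 ± 1.03 (SE), with a 95% confidence interval of -2.78 to 1.65. The difference was -0.55 ± 0.47 (SE) without the 4 libraries and 0.12 without water gavage rat 2. With the share of reads outside genes as a covariate it was 1.78, and the gene was not called.

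Vip, the precursor of vasoactive intestinal peptide, followed the same libraries. In experiment 1 it was at 4.73, 6.13, 14.4, 10.6 and 23.0 CPM in water rats and at 12.1, 7.78, 18.4, 8.24 and 6.02 CPM in EtOH rats, below the filter and with overlapping groups. In experiment 2 it ranged from 2.07 to 22 CPM with a median of 9.62 after water gavage and from 2.16 to 34.8 CPM with a median of 15.9 after EtOH gavage. In experiment 2, 3 EtOH gavage rats were above every water gavage rat, and 2 EtOH gavage rats were among the 4 libraries at 2.07 to 2.64 CPM. In edgeR its log2 fold change was -0.21 ± 0.35 (SE) in experiment 1 (FDR 0.959, and 0.19 without water rat 5) and 0.80 ± 0.72 (SE) in experiment 2 (FDR 0.675). Without the 4 libraries the latter was 0.88 ± 0.45 (SE, edgeR FDR 0.461). It was 1.77 with the share of reads outside genes and 1.58 with the first principal component as a covariate, and 0.52 with the replicate block. Leaving out single rats gave 0.46 (without EtOH gavage rat 3) to 1.23 (without water gavage rat 4).

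Cck and Vip varied with the cortical marker list from rat to rat. The relation was computed for each of the 9 genes in experiment 1 (10 rats) and in the 8 rats of experiment 2 outside the low libraries, 18 relations in all, on deviations from the group means. The list was singled out after the values were seen, among 9 library measures set against the 9 genes, so the adjustment over 18 does not cover that choice. The striatal interneuron list varied in the opposite sense, given here as a description. In experiment 1 its r was -0.83 with Cck and -0.65 with Vip. In the 8 rats of experiment 2 it was -0.81 with Cck and -0.91 with Vip. For this list the deviations of the 8 rats were taken from group means that still included the low libraries. They are therefore not directly comparable with the coefficients of the cortical list in these rats. The values that follow are for the cortical list. In experiment 1, Cck had a Pearson's r of 0.95 (permutation p = 0.00122, adjusted 0.0161) and a Spearman's rho of 0.96 (permutation p = 0.00061, adjusted 0.011), and r was 0.96 without the 2 rats farthest from the median of the list. Vip had r of 0.92 (permutation p = 0.00179, adjusted 0.0161) and rho of 0.93 (permutation p = 0.00271, adjusted 0.0244), and r was 0.84 without 2 rats. No other gene passed the adjustment in experiment 1, where r ranged from -0.72 for Npy2r to -0.07 for Npy5r among the others.

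In the 8 rats of experiment 2, Vip had r of 0.94 (permutation p = 0.0164, adjusted 0.0591) and rho of 0.90 (permutation p = 0.00756, adjusted 0.0454), and r was 0.89 without the 2 farthest rats. Cck had r of 0.87 (permutation p = 0.0123, adjusted 0.0591) and rho of 0.76 (permutation p = 0.0318, adjusted 0.115), and r was 0.60 without 2 rats. Npy1r had r of 0.77 (permutation p = 0.0153, adjusted 0.0591) and rho of 0.81 (permutation p = 0.0157, adjusted 0.0709), and r was 0.58 without 2 rats. No r of experiment 2 passed the adjustment, and only the rho of Vip did. All values of a rat come from 1 library and share its scaling. In whole tissue, a different number of cells of a type and a different RNA content per cell cannot be told apart, and the part of the dissection in these values was not tested.

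**Figure D3:**
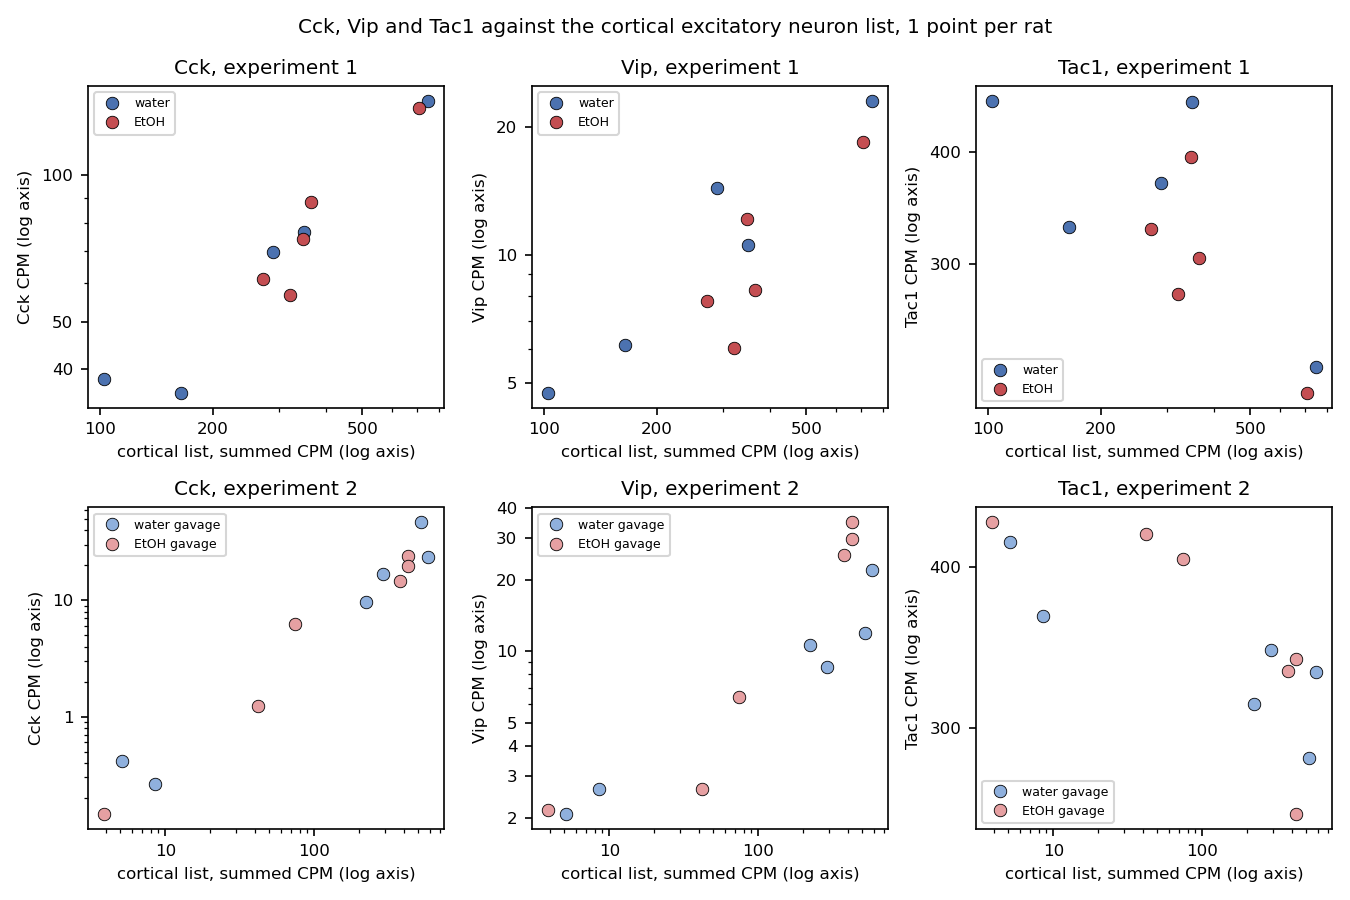
CPM of Cck, Vip and Tac1 (vertical, log axis) against the summed CPM of the cortical excitatory neuron list (horizontal, log axis), 1 point per rat, for experiment 1 (top) and experiment 2 (bottom). Cck and Vip tend to be low where the list is low, and in experiment 2 Tac1 lies at 366 to 434 CPM in the 4 rats with the lowest list.

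Tac1, the substance P precursor of D1 projection neurons, gave coefficients below 0 with the cortical list that did not pass the adjustment, with r of -0.68 and rho of -0.44 in experiment 1 (permutation p = 0.0529 and 0.248, adjusted 0.136 and 0.559), and r was -0.29 without the 2 farthest rats. In experiment 1 it was at 457, 330, 369, 455 and 230 CPM in water rats and at 395, 328, 215, 305 and 278 CPM in EtOH rats. The groups overlapped, and 1 EtOH rat was below every water rat. The mean was 368 ± 94.8 CPM (SD, n = 5) against 304 ± 66.1 CPM (SD, n = 5), with a log2 fold change of -0.27 ± 0.17 (SE, edgeR FDR 0.911). The lowest level of each group was found in the rat with the highest cortical list of that group, at 230 and 215 CPM.

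In experiment 2, Tac1 ranged from 284 to 418 CPM with a median of 338 after water gavage and from 257 to 434 CPM with a median of 373 after EtOH gavage. The 4 libraries low for cortical genes held 366 to 434 CPM of Tac1 and the others 257 to 406 CPM. The log2 fold change was 0.09 ± 0.14 (SE, edgeR FDR 0.755), with a 95% confidence interval of the fold from 0.863 to 1.31, and it was 0.086 ± 0.13 (SE) without the 4 libraries. Tac1 had the smallest standard error of the 9 genes in this experiment, and its within-group SD was at the 26.7th percentile of all genes, against the 95th in experiment 1.

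Cartpt encodes the CART peptide precursor, which is induced by psychostimulants. It was at 146, 116, 125, 142 and 107 CPM in water rats and at 148, 70.6, 108, 130 and 96.4 CPM in EtOH rats of experiment 1, with overlapping groups, 2 EtOH rats below every water rat and 1 above. In experiment 1 the log2 fold change of Cartpt was -0.20 ± 0.15 (SE, edgeR FDR 0.924). In experiment 2 it ranged from 3.72 to 69.3 CPM with a median of 62.4 after water gavage and from 22.4 to 86.4 CPM with a median of 50.2 after EtOH gavage. The level in water gavage rat 5, with 27 reads, was the lowest of all, and the highest was 23.2 times as high. In this experiment the log2 fold change was 0.06 ± 0.50 (SE, edgeR FDR 0.955), and the sign turned to -0.18 without that rat and to -0.19 without the 4 libraries.

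Nts, the neurotensin precursor, was at 55.5, 44.5, 41.6, 54.9 and 34.3 CPM in water rats and at 46.2, 30.1, 40.2, 61.2 and 48.2 CPM in EtOH rats of experiment 1. The means were 46.2 ± 9.02 CPM and 45.2 ± 11.4 CPM (SD, n = 5), with a log2 fold change of -0.01 ± 0.17 (SE, edgeR FDR 0.996). In experiment 2 it ranged from 19.4 to 94.3 CPM with a median of 42.1 after water gavage and from 37.3 to 75.8 CPM with a median of 65.4 after EtOH gavage. The EtOH gavage rats lay inside the range of the water gavage rats, and the log2 fold change was 0.36 ± 0.33 (SE, edgeR FDR 0.675) and 0.36 ± 0.25 (SE) without the 4 libraries. The fold change ranged from 0.20 without water gavage rat 5 to 0.69 without water gavage rat 1, and was 0.14 with the share of reads outside genes and 0.20 with the first principal component as a covariate.

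In each experiment 4 of the genes above the filter had a within-group SD above the 90th percentile of all genes tested. In experiment 1 these were Cck, Tac1, Nts and Cartpt, and in experiment 2 Cck, Vip, Cartpt and Sst, so that Cck and Cartpt were in both sets. Npy1r was at the 80.2nd and 67.7th percentile. For Sst the position changed from the 27.9th percentile in experiment 1 to the 95th in experiment 2.

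**Figure D4:**
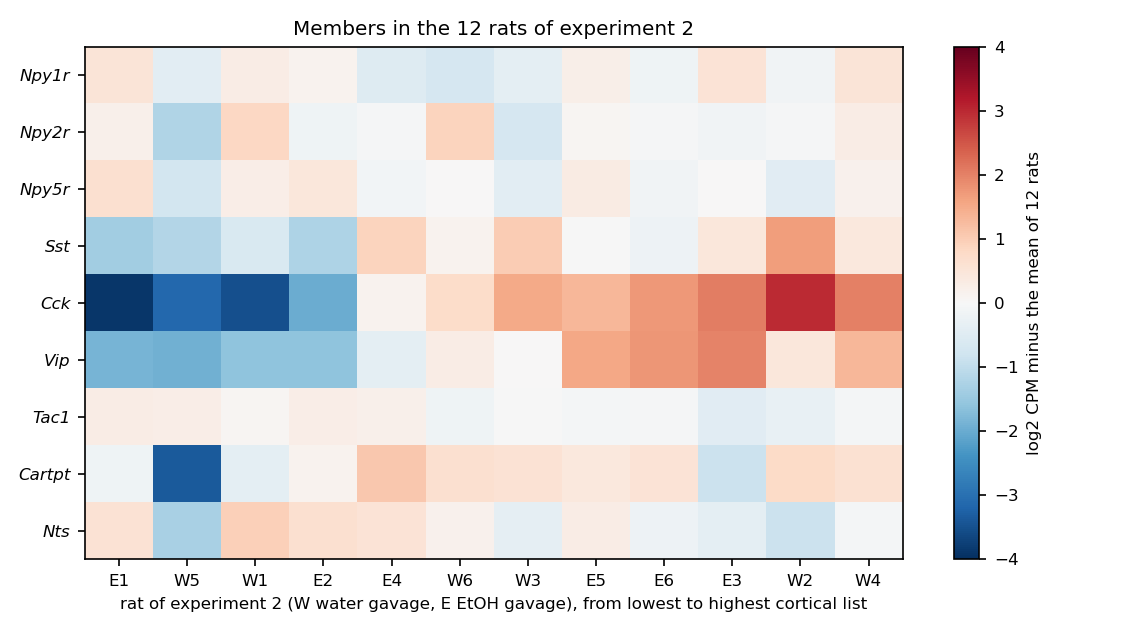
Log2 CPM of each gene in the 12 rats of experiment 2, minus its mean over the rats (color, from -4 to 4), with the rats ordered from the lowest to the highest cortical list. Cck and Vip are below their mean in the 4 rats on the left (E1, W5, W1 and E2), while Cartpt is low mainly in W5, where it was at 3.72 CPM.

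Whether the genes vary together between rats of one treatment was asked for the 6 genes above the filter in both experiments (15 pairs in each). In experiment 1, 0 of 15 pairs passed the adjustment. The strongest was Cartpt with Nts, with r of 0.79 (permutation p = 0.018, adjusted 0.271) and rho of 0.72 (permutation p = 0.0384, adjusted 0.577), and r was 0.84 without the 2 farthest rats. In experiment 2, 2 of 15 pairs passed by r over all 12 rats, Sst with Cck and Cck with Tac1, and 1 by rho, Cck with Tac1 (adjusted permutation p of rho 0.0343, against 0.108 for Sst with Cck). Because 4 libraries stand apart, no coefficient is given for the 12 rats. In the remaining 8 rats, Sst with Cck had r of 0.24 (permutation p = 0.596, adjusted over all pairs of the 9 genes 0.79) and rho of 0.26 (permutation p = 0.567, adjusted 0.756), and r was 0.44 without the 2 farthest rats. Cck with Tac1 had r of -0.73 (permutation p = 0.064, adjusted 0.404) and rho of -0.67 (permutation p = 0.118, adjusted 0.576), and r was -0.74 without the 2 farthest rats. In these 8 rats 0 pairs passed.

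Outside the 10 genes, those most like each gene were sought by the lower of its 2 Pearson coefficients (10 rats of experiment 1, 12 of experiment 2, group means removed) among 8170 genes tested in both. They are given as descriptions, since rats of an experiment share their library preparation and experiment 2 its 4 low libraries. For Cck they were Stx1a, a syntaxin of the presynaptic membrane, with r of 0.98 and 0.99, Slc17a7 with 0.96 and 0.95, and Nptx1, a neuronal pentraxin, with 0.95 and 0.94. For Tac1 they were Gnal, the G protein that couples the D1 receptor to adenylyl cyclase in striatum (0.95 and 0.89), Gsto1 (0.91 and 0.86) and Stc1 (0.85 and 0.91). For Sst they were Acaa1a, Tmub2 and Dgcr14, with lower coefficients of 0.87, 0.85 and 0.83. The most alike were Snx10 and Pdss2 for Npy1r (0.69 and 0.67), Bud13, Iqsec3 and Krt71 for Cartpt (0.82, 0.77 and 0.77), and Araf, Col11a1 and Lats2 for Nts (0.79, 0.79 and 0.76). The coefficients over 12 rats include the spread between the 4 low libraries and the rest. For the other 8 rats the deviations were still taken from the group means over all 12 rats, which include the low libraries. On these deviations Iqsec3 with Cartpt had r of -0.28, opposite in sign. Araf with Nts had 0.47, Bud13 with Cartpt 0.52, Pdss2 with Npy1r 0.55 and Krt71 with Cartpt 0.59, while the other 12 named genes had 0.73 to 0.94. Coefficients from the group means of the 8 rats themselves were not computed for these genes.

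The other genes of these peptide systems gave the same count of 0. Of 16 receptors of the peptides, 8 were above the filter in experiment 1 and 6 in experiment 2, with median log2 fold changes of 0.04 and 0.02. The lowest P-value was that of Tacr1, the substance P receptor, in experiment 1 (26.1 ± 8.12 CPM in water and 19.7 ± 3.12 CPM in EtOH rats, SD, n = 5, log2 fold change -0.39, edgeR FDR 0.873). In experiment 2 it was that of Sort1, the sorting receptor that also binds neurotensin (883 ± 131 CPM and 793 ± 67.2 CPM, SD, n = 6, log2 fold change -0.16, edgeR FDR 0.675, and -0.12 without the 4 libraries).

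Of 13 genes of peptide processing and dense core vesicles, 10 were above the filter in each experiment, and 0 were called. Scg3, a secretogranin that anchors granule cargo, had the lowest P-value in experiment 1, at 466 ± 22.6 CPM in water and 501 ± 10.3 CPM in EtOH rats (SD, n = 5, log2 fold change 0.11, edgeR FDR 0.866). Vgf, a granin-like peptide precursor, had it in experiment 2, at 18.8 ± 8.53 CPM after water gavage and 10.7 ± 4.88 CPM after EtOH gavage (SD, n = 6, log2 fold change -0.81, edgeR FDR 0.675). Over all 12 rats the groups of Vgf overlapped. In the 8 rats outside the low libraries they did not, with 18.3 to 31.3 CPM after water gavage and 11.8 to 16.9 CPM after EtOH gavage, and the log2 fold change was -0.70 ± 0.20 (SE, edgeR FDR 0.460, unadjusted P-value 0.0051). In that edgeR fit 916 genes had an unadjusted P-value under 0.05 and 0 were called. The 8 rats were chosen after the values were seen, and the share of all genes without overlap in them was not counted. In experiment 1 the log2 fold change of Vgf was 0.12 (edgeR FDR 0.951).

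Of 20 other neuropeptide genes only 3 (Penk, Pdyn and Tac3) were above the filter in each experiment, and 0 were called. Tac3, the neurokinin B precursor, was at 29.3 ± 4.24 CPM in water and 22.4 ± 5.22 CPM in EtOH rats of experiment 1 (SD, n = 5, log2 fold change -0.38, edgeR FDR 0.866), and was the only one of these listed genes with an unadjusted P-value under 0.05 when all rats were included. Penk, the enkephalin precursor of D2 projection neurons, had the lowest P-value of the list in experiment 2, at 1212 ± 327 CPM after water gavage and 894 ± 265 CPM after EtOH gavage (SD, n = 6, log2 fold change -0.44, edgeR FDR 0.675, and -0.29 without the 4 libraries). Of 5 further genes of the NPY family and its breakdown (Pyy, Ppy, Npy4r, Npy6r and Dpp4), 4 were listed and 0 were above the filter.

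The summed levels of 8 marker lists, the reads on genes and the share of reads outside genes were compared between groups with exact permutation tests (20 tests). The lowest adjusted p was 0.159, for the neuroblast list in experiment 1, at 239 ± 25.3 CPM in water and 333 ± 48.3 CPM in EtOH rats (SD, n = 5, exact permutation p = 0.00794, the smallest that 5 against 5 rats allow). The list of striatal interneurons, to which Sst neurons belong, summed to 410 ± 104 CPM in water and 339 ± 31.8 CPM in EtOH rats of experiment 1 (SD, n = 5, exact permutation p = 0.167). Of its 8 tested genes, 6 had a log2 fold change below 0, where the median over all genes was -0.0012. In edgeR 4 of the 8 had an unadjusted P-value under 0.05, against 5.58% of all genes, and 0 were called. In experiment 2, 4 of the 8 were below 0 and 4 above, with 0 under 0.05. The list of projection neurons holds genes of both the D1 type, which makes Tac1, and the D2 type. In experiment 1 it summed to 3210 ± 711 CPM and 2649 ± 824 CPM (SD, n = 5, exact permutation p = 0.230). Of its 8 genes, 7 were below 0 in experiment 1 and 6 in experiment 2. The log2 fold change in experiment 1 was -0.50 for Drd1 (edgeR FDR 0.830) and 0.0032 for Drd2 (edgeR FDR 0.999). In experiment 2 that of Drd1 was 0.06 (edgeR FDR 0.870). The cortical list did not pass in either experiment (exact permutation p = 0.579 and 0.712). The part of these cell type lists in the fold changes of the peptide genes was not tested.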

How the data were processed

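Groups and replicate numbers came from the sample labels. The authors aligned the reads to rn6 (Rnor_6.0) with TopHat2 (2.0.13), counted them per gene with HTSeq and deposited raw counts without normalization. The HTSeq options were not given in the sources used here. Libraries were not strand-specific in experiment 1 and were in experiment 2. Reads assigned to no feature, called reads outside genes here, and the other summary lines were kept out of library sizes.

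Each experiment was fitted alone in edgeR 4.0.16 (R 4.3.3) with TMM factors, glmQLFit and glmQLFTest, over the genes with a base mean (count divided by the DESeq2 size factor) above the median of all listed genes, 43.6 in experiment 1 and 66.4 in experiment 2. P-values were adjusted by Benjamini-Hochberg (FDR) over all genes tested. Genes below the filter were taken from a fit of all genes with a read. Log2 CPM used a prior count of 2, and correlations across rats used 100000 permutations within groups. Code was tested on simulated counts. The alternatives included DESeq2 1.42.0. The rats of a group were separate animals, and no pair of libraries of the same group agreed within sampling noise (chi-square per degree of freedom at least 2.67). Pairs across groups were not checked.

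The 10 genes and all lists were chosen with earlier results of these data known. The text names the 10 genes, in every other list the gene with the lowest P-value, and the 3 genes most like each, of which 1 is not reported here. Other genes are named to describe libraries, zeros or cell types, or because they were the few tested, and were chosen after their values were seen.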

Additional observations from a re-analysis of the deposited data

Results flagged for a closer look

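Groups were scanned for a single rat far from the others. Besides the 9 counted genes, the scan took in each library's read total on genes, its percentage of reads assigned to no feature, and the cortical list. That list was singled out after the values were seen, and the remaining marker lists were not scanned. Of 48 groups, 1 stood out, and chance gives about 2.4. It was the summed level of cortical excitatory neuron genes in EtOH rat 3 of experiment 1, at 707 CPM against 272 to 366 CPM in the other 4 EtOH rats, a gap of 0.783 of the range of the group. The same rat had the highest Cck (137 CPM) and Vip (18.4 CPM) and the lowest Tac1 (215 CPM) of the EtOH group. Without it the log2 fold change of Cck was -0.08 in place of 0.18. In marker lists left out of the scan, single rats of experiment 2 also lay apart from their group. They were picked after the values were seen, and how many chance would give in these lists was not counted. Vascular and choroid genes summed to 137 CPM in EtOH gavage rat 5, against 57.6 to 66.3 CPM in the rest. Striatal interneuron genes were at 451 CPM in water gavage rat 1, against 275 to 319 CPM. Oligodendrocyte genes were at 15499 CPM in water gavage rat 5, against 9220 to 11244 CPM.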

How the results depend on the processing

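The number of genes called, overall and among the 10, was 0 under each of 21 alternatives in experiment 1 and 24 in experiment 2. These were other normalizations, filters and tools, covariates, the replicate block and each rat left out, and the settings chosen after the data were seen were the cortical list as a covariate and the fit without the 4 libraries low for cortical genes. The lowest FDR among the genes followed was 0.362 in experiment 1, without water rat 5, and 0.36 in experiment 2, with the cortical list as a covariate. Counts of genes with an unadjusted P-value under 0.05 moved more. In experiment 1 they were 820 of 14024 genes (5.85%) without the filter against 483 of 8655 (5.58%), and in experiment 2 they were 1025 with the cortical list as a covariate, 916 without the 4 libraries, 315 with DESeq2 and 286 without the filter, against 115. Leaving out single rats gave 380 to 743 such genes in experiment 1, with 743 without water rat 5, and 28 to 776 in experiment 2, with 776 without EtOH gavage rat 4 and 774 without water gavage rat 1. Among the 9 counted genes of experiment 2 there were 2 with the share of reads outside genes or the first principal component as a covariate, against 0.

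The replicate number as a block left 0 genes called in both experiments, with a lowest FDR of 0.128 and 0.529 and 476 and 414 genes with an unadjusted P-value under 0.05. The labels do not say whether equal numbers pair the rats. The correlation of their deviations was -0.13 to 0.14 in experiment 1 and -0.76 to 0.84 in experiment 2. In each experiment only EtOH or EtOH gavage rat 1 correlated best with the control rat of its own number. Whether rats of equal number shared a handling day or batch was not tested.

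Signs turned in experiment 1 with the first principal component as a covariate, to log2 fold changes of -0.36 for Cck, 0.12 for Tac1 and 0.15 for Nts, and with the cortical list as a covariate, to -0.068 for Cck and 0.069 for Nts. In experiment 2 they turned with the share of reads outside genes (Sst 0.27, Cck 1.78, Tac1 -0.036), with the first principal component (Sst 0.074, Cck 1.39, Tac1 -0.012) and without the 4 libraries (Cartpt -0.19). The cause was not tested. With each rat left out in turn, the log2 fold changes in experiment 1 ranged from -0.16 to 0.23 for Npy2r, -0.078 to 0.60 for Cck, -0.15 to 0.10 for Nts and -0.53 to 0.19 for Vip. In experiment 2 they ranged from -0.37 to 0.0088 for Npy2r, -0.95 to 0.12 for Cck and -0.18 to 0.21 for Cartpt. The other genes kept their sign in these fits. Of the pairs of genes in experiment 2, 2 of 15 passed by r, against 6 with pairs of all 9 genes, 0 with the share of reads outside genes regressed out and 0 without the 4 libraries. At 7 to 60 reads per rat for Npy2r, changes smaller than its interval could not be shown.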
